A study of Mus musculus with 2 samples.

Results

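The 9 genes described here are the cytokine gene Il10, the cytokine subunit gene Ebi3, and 7 genes proposed to regulate or accompany them in regulatory T cells (Treg cells): Fgl2, Maf, Prdm1, Nfil3, Bhlhe40, Batf and Irf4. They were taken by symbol from the 27998 genes of the deposited matrices, and each symbol named 1 gene. Their levels were measured in 2202 sorted cells from lymph node and 1457 from tumour. They held 2521 of 10681101 UMIs in the lymph node cells (0.0236%) and 16366 of 16669263 in the tumour cells (0.0982%). A UMI, or unique molecular identifier, is a tag that lets each captured transcript be counted once.

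Treg cells restrain other T cells and depend on the transcription factor Foxp3. IL-10, a dimer of the Il10 product, acts on myeloid and T cells to limit inflammation. The Ebi3 protein forms IL-35 with the Il12a product and IL-27 with the Il27 product, so an Ebi3 transcript alone does not tell which cytokine a cell makes. Fgl2 encodes a secreted fibrinogen-like protein with suppressive activity. The other 6 genes encode transcription factors: c-Maf (Maf) and Blimp-1 (Prdm1), both known to promote Il10 in several kinds of T cell, Nfil3, a basic leucine zipper factor also tied to Il10, Bhlhe40, a basic helix-loop-helix repressor known to restrain Il10 in helper T cells, and Batf and Irf4, which bind DNA together and are needed for effector Treg cells.

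Both groups were C57BL/6 mice of 5 to 8 weeks carrying Foxp3Cre-YFP, an allele in which the Foxp3 locus drives Cre recombinase and a yellow fluorescent protein, so the lymph node controls carry it too. The mice of the first group were unchallenged and gave lymph node. Those of the other bore B16 tumours, a transplanted melanoma, taken at day 14. Each group was 1 library of the 10x Chromium 3' assay, which reads transcripts from their 3' end. The labels name no gate for the sort and do not say how many mice each library came from. Without replicate libraries no test between the tissues was possible. Every interval below is a 95% interval for counting error only, and those of odds ratios cover only part of that error. The cells of 1 library share its mice and its sort and are not replicates.

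The tumour cells were deeper, with a median of 8766 UMIs and 2441 genes against 4100 UMIs and 1335 genes, and their median mitochondrial share was 1.39% against 2.67%. T cell and Treg markers were present in both: with every cell thinned to 1811 UMIs, the shares with a UMI in lymph node and in tumour were 55.7% and 81.9% for Ikzf2, 15.4% and 59.3% for Ctla4, and 62.2% and 64.9% for Cd3e. Foxp3 itself was sparse, at 4.63% and 4.26%, so most of the cells cannot be called Foxp3-expressing from these counts. Of the 2 CD8 T cell markers, Cd8a had no UMI in either library, and Cd8b1 had a UMI in 3.36% and 3.77% of the thinned cells (17.6 and 19.5 CPM). The 5 melanoma markers summed to 0.0936 CPM (UMI sums scaled to a common library total) in lymph node cells, with 4 at 0, and to 32.9 CPM in tumour cells, with none at 0. The 7 macrophage and monocyte markers summed to 2.06 and 8.64 CPM, with 4 and 1 at 0. The 6 dendritic cell markers summed to 1.31 and 1.38 CPM, with 4 and 3 at 0, and the 4 markers of NK and innate lymphoid cells to 0.562 and 1.02 CPM, with 2 and 3 at 0. The 5 B and plasma cell markers summed to 21.1 and 9.36 CPM. The part of these other transcripts in the differences between tissues was not tested. 1 barcode occurred among the cells of both libraries.

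All 9 genes lie on different stretches of the mouse genome (GRCm38, GENCODE M21). Il10 spans chromosome 1 from 131019845 to 131024974 and Ebi3 chromosome 17 from 55952640 to 55957022, both on the plus strand. Fgl2 lies on chromosome 5 from 21372642 to 21378374, Bhlhe40 on chromosome 6 from 108660629 to 108666925, Batf on chromosome 12 from 85686669 to 85709087 and Irf4 on chromosome 13 from 30749226 to 30766976, all on the plus strand. Maf (chromosome 8, 115682942 to 115707794), Prdm1 (chromosome 10, 44437177 to 44528501) and Nfil3 (chromosome 13, 52967209 to 52981073) lie on the minus strand. A gene on the opposite strand overlaps 4 of them: Gm16712 overlaps Ebi3, Ccdc146 overlaps Fgl2, Gm15655 overlaps Maf and 0610040F04Rik overlaps Bhlhe40. The labels do not say whether counting used the strand, so reads of such partners cannot be told apart here. Each partner held between 1 and 18 UMIs in either library.

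The stretches just before the starts of Ebi3 and Fgl2 are shown because both genes were higher in tumour and because, among tumour cells, Fgl2 was found with Il10 more often than depth alone gave while Ebi3 was not. RefSeq promoter windows (GRCm38.p6) were matched for 6 of the 9 genes: Ebi3, Fgl2, Prdm1, Nfil3, Batf and Irf4. In the 250 bases before each RefSeq start, both strands were searched for letters bound by the products of the other genes. These were TGANTCA (the AP-1 site that BATF binds with a JUN protein), TGCTGA (the core of the MAF recognition element), CACGTG (the E-box of BHLHE40), TTANNTAA (NFIL3), GAAA followed 2 bases later by a second GAAA (IRF proteins) and GAAAGT (the core of the Blimp-1 site, whose fuller forms can overlap the IRF letters). In the sequences, capitals mark the matches, the lower case letters match none of these, and both are the plus strand from 5' to 3'.
Ebi3, chr17:55952373-55952622: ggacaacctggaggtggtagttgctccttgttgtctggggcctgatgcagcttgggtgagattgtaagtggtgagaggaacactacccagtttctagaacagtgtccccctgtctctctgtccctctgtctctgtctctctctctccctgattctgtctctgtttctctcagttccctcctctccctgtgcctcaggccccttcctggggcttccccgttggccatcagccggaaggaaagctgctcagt
Fgl2, chr5:21372423-21372641: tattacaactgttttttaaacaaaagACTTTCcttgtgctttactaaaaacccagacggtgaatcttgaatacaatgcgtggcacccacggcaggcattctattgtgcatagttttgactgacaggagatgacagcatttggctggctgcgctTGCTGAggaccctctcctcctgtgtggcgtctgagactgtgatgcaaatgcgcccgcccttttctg
The Fgl2 stretch holds the Blimp-1 core as its reverse complement, 224 bases before the RefSeq start, and the MAF core 97 bases before it. That start is at 21372673, while the Fgl2 span given above begins at 21372642, where the stretch shown stops. An AP-1 match 16 bases before the RefSeq start thus lies inside the Fgl2 span and outside the stretch shown. In Ebi3, none of the 6 sets of letters occurred. Prdm1 held a TGANTCA match 48 bases before its start, and the windows of Nfil3, Batf and Irf4 held none of the 6. Of 32851 promoter windows of this length, 12.3% held the Blimp-1 core, 16.1% the MAF core, 6.75% TGANTCA, 6.02% the E-box, 5.43% the NFIL3 letters and 2.98% the IRF letters. A match is a description of the letters and not a measured binding site.

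Il10 was nearly absent from the lymph node cells and clearly present in the tumour cells. Lymph node cells held 12 Il10 UMIs, or 1.12 CPM (0.581 to 1.96), and tumour cells 965, or 57.9 CPM (54.3 to 61.7). That is a 51.5-fold difference (29.4 to 100), the widest ratio of the 9 genes. Intervals of levels and ratios take each UMI as independent. With all cells thinned to 1811 UMIs, an Il10 UMI was found in 0.0908% of lymph node cells (2 cells, 0.011% to 0.328%) and in 6.31% of tumour cells (5.12% to 7.69%). Unthinned, the shares were 0.409% (9 cells) and 16% (233 cells). The size of the ratio moved with how cells were weighted: it was 145-fold as a mean per thinned cell and 26.8-fold among cells with a Foxp3 UMI.

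Ebi3 was already present in lymph node and differed less between the tissues. It went from 210 UMIs, or 19.7 CPM (17.1 to 22.5), to 1321 UMIs, or 79.2 CPM (75.0 to 83.6), a 4.03-fold difference (3.48 to 4.68). At 1811 UMIs it was found in 2.86% of lymph node cells (2.21% to 3.65%) and 14.6% of tumour cells (12.8% to 16.5%), and unthinned in 6.99% and 49.4%. Its dimer partners were close to absent: a single UMI of Il12a was counted, in tumour, and none of Il27, Il12b or Il23a in either tissue. A count of 0 allows up to 0.345 CPM in lymph node and 0.221 CPM in tumour.

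The 2 transcripts were also spread differently over the tumour cells. Of the 233 tumour cells with Il10, 124 had 1 UMI, 25 had 2, 55 had 3 to 9 and 29 had 10 or more, up to 54. Those 29 cells held 515 of the 965 Il10 UMIs, or 53.4%. Ebi3 was thinly spread instead: of its 720 cells, 397 had 1 UMI, 171 had 2, 151 had 3 to 9 and 1 had 10. The 15 cells richest in each transcript, 1% of the tumour cells, held 37.4% of Il10 UMIs and 7.80% of Ebi3 UMIs.

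**Figure D1:**
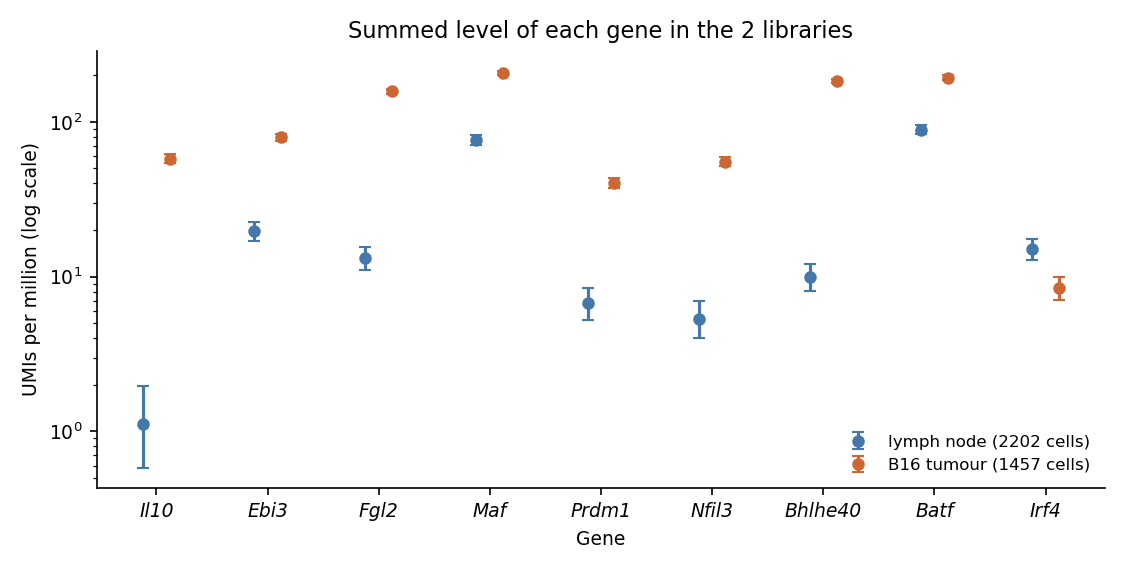
Levels of the 9 genes in CPM (log axis) in the lymph node library and in the tumour library, with bars for the 95% Poisson intervals of counting error. Il10 stands at 1.12 CPM in lymph node and 57.9 CPM in tumour, and Irf4 is the 1 gene of the 9 that was lower in tumour (8.40 against 15.0 CPM).

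In tumour, 6 of the other 7 genes exceeded their lymph node level by 2-fold or more, and with Il10 and Ebi3 so did 8 of the 9. The share over all 9976 genes with at least 50 UMIs was 13.2%. Bhlhe40 stood at 106 UMIs, or 9.92 CPM (8.13 to 12), in lymph node and at 3062 UMIs, or 184 CPM (177 to 190), in tumour, which is 18.5-fold (15.2 to 22.7). Fgl2 went from 13.2 to 157 CPM, 11.9-fold higher (10.0 to 14.2), and Nfil3 from 5.34 to 55.4 CPM, 10.4-fold higher (7.94 to 13.8). Prdm1 was 5.94-fold higher (4.66 to 7.69), at 40.1 against 6.74 CPM. These 4 genes were thus scarce in lymph node, where each had a UMI in under 2% of cells at 1811 UMIs, and in tumour the shares ran from 7.0% for Prdm1 and 11% for Nfil3 to 25.6% for Fgl2 and 27.0% for Bhlhe40.

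Maf and Batf were already frequent in lymph node. Maf held 814 UMIs, or 76.2 CPM, there and 3453 UMIs, or 207 CPM, in tumour, 2.72-fold higher (2.52 to 2.94), and its share at 1811 UMIs was 10.7% and 34.2%. Batf went from 88.8 to 193 CPM, 2.17-fold higher (2.02 to 2.34), and from 11.4% to 26.4% of cells. Among cells with a Foxp3 UMI its ratio was 1.55, under 2-fold. Without cells bearing 3 or more UMIs of a 12-gene mitosis list, which were 575 of the 1457 tumour cells, the Fgl2 ratio was 23.4, and with the deepest 5% of cells left out it was 18.7. Among the Foxp3 cells the ratio of Nfil3 was 6.03.

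Irf4 alone of the 9 was lower in tumour. It held 160 UMIs, or 15.0 CPM (12.7 to 17.5), in lymph node and 140 UMIs, or 8.40 CPM (7.07 to 9.91), in tumour, which is 1.78-fold lower (1.41 to 2.25). Its shares at 1811 UMIs, 1.86% (1.34% to 2.52%) in lymph node and 0.961% (0.526% to 1.61%) in tumour, had overlapping intervals. Unthinned, where tumour cells are deeper, the order was the opposite, at 4.50% and 7.69%. By CPM the gene thus differed in direction from Batf, with which its protein binds DNA. Of all genes, 7.7% were at least 2-fold lower in tumour, and Irf4 was not among them.

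**Figure D2:**
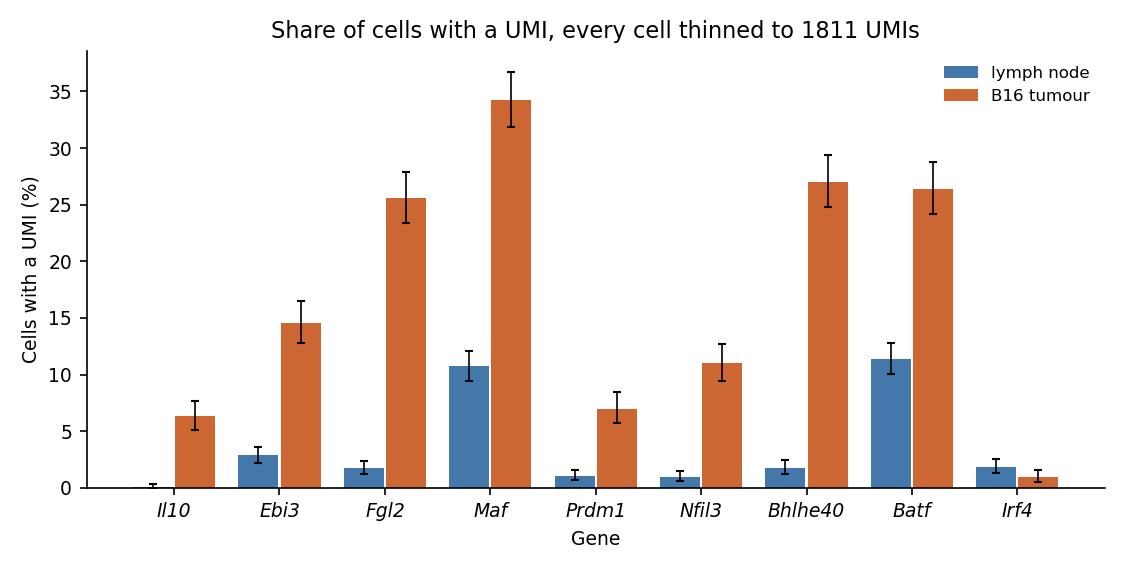
Share of cells with at least 1 UMI of each of the 9 genes (percent), in lymph node and tumour, after every cell was thinned to 1811 UMIs, with Clopper-Pearson 95% intervals. Maf goes from 10.7% to 34.2%, and the Irf4 intervals of the 2 libraries overlap.

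Transcripts free in the droplets can place a UMI in a cell that does not make it. In barcodes of 10 to 100 UMIs, too small to be cells, the levels followed the library. Il10 was at 1.15 CPM in lymph node and 68.3 CPM (60.2 to 77.1) in tumour, against 57.9 CPM in the tumour cells. Ebi3 was at 20.3 and 75.2 CPM, Maf at 57.1 and 137 CPM, and Batf at 149 and 253 CPM. In tumour, Nfil3 was at 80.5 CPM in these barcodes against 55.4 CPM in cells, the lowest ratio of cells to small barcodes among the 9 genes there, and Bhlhe40 at 182 against 184 CPM. The part of free RNA in tumour cells with a single Il10 or Ebi3 UMI was not tested. A second measure came from 15 tumour barcodes set aside for their melanoma transcripts, with a median of 70488 UMIs. They held 1 Il10 UMI in 1238403 (0.807 CPM) and 8 Ebi3 UMIs (6.46 CPM, in 7 of 15). After thinning to 1811 UMIs, 0 of 15 had Il10 or Ebi3, with an upper bound of 21.8%. Bhlhe40 was at 223 CPM in them and Maf at 66.2 CPM.

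Which tumour cells held Il10 was asked by co-detection. Deeper cells show more of every gene, so the tumour cells were cut into 10 equal strata by UMI total. The odds of finding a gene in cells with a cytokine UMI, over those in cells without one, were then pooled over strata (Mantel-Haenszel odds ratio). A ratio of 1 means that the gene was found equally often, and a ratio of 1.5 or more was counted as co-detected. Among 8092 genes detected in 5% to 95% of tumour cells, 3.73% reached 1.5 with Il10, 5.02% were at 1/1.5 or less, and the median was 0.994.

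Maf, Nfil3 and Fgl2, 3 of the 7 genes, reached 1.5 with Il10. A Maf UMI was found in 204 of the 233 Il10 cells, where depth alone gave 185.9: 87.6% (82.6% to 91.5%) against 76.6% (74.2% to 79.0%) of cells without Il10, an odds ratio of 1.99. Nfil3 was found in 123 cells against 92.7 expected, 52.8% (46.2% to 59.3%) against 34.5% (31.8% to 37.2%), with an odds ratio of 1.92. Fgl2 was found in 177 against 157.5 expected, with an odds ratio of 1.65. By this ratio Maf ranked 36, Nfil3 47 and Fgl2 128 among the 8092 genes. Of genes detected in 30% to 80% of the tumour cells, as these 3 were, 2.19% reached 1.5.

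Blimp-1 and the Batf and Irf4 pair stood lower. Prdm1 had an odds ratio of 1.37 with Il10 (89 cells, 76.9 expected) and Batf of 1.28 (177 cells, 168.8 expected). The interval of Prdm1 (1.04 to 1.79) overlapped those of Fgl2 (1.22 to 2.27), Maf (1.34 to 3.05) and Nfil3 (1.47 to 2.51), which all reach below 1.5. These intervals carry only the counting error of the share among cells with the cytokine. That of the other cells is left out. Bhlhe40 was at 0.974, with 155 cells where 156.1 were expected, and Irf4 at 0.739, on 16 cells. In the 244 tumour cells with a Foxp3 UMI, of which 50 had Il10, Prdm1 was at 1.91 and Irf4 at 0.278. Irf4 had a UMI in only 7.69% of all tumour cells, so its ratio there rests on very few cells. Without the mitotic cells, 5 of the 7 genes reached 1.5: Prdm1 was then at 1.57, Batf at 1.52 and Nfil3 at 2.54, and Irf4 was at 1.14.

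With Ebi3 the ratios in tumour lay closer to 1. None of the 7 genes reached 1.5, where 1.3% of all genes did, 1.46% were at 1/1.5 or less and the median was 0.999. Of genes detected in 30% to 80% of cells, 0.231% reached 1.5 and 0.269% were at 1/1.5 or less. Maf had the highest ratio, 1.30, in 592 cells against 577.5 expected, or 82.2% against 74.6% of cells. Fgl2 stood at 1.12, Prdm1 at 1.10, Bhlhe40 at 0.990, Batf at 0.941 and Irf4 at 0.867. Nfil3 was the lowest, at 0.857, in 278 cells against 289.7 expected, while it was the second highest with Il10. Whether the ratios with Il10 differ from those with Ebi3 was not tested. Among the 323 cells with 2 or more Ebi3 UMIs, Maf was at 1.81 and Bhlhe40 at 1.38. Without the mitotic cells, 1 gene, Maf, passed 1.5 with Ebi3.

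**Figure D3:**
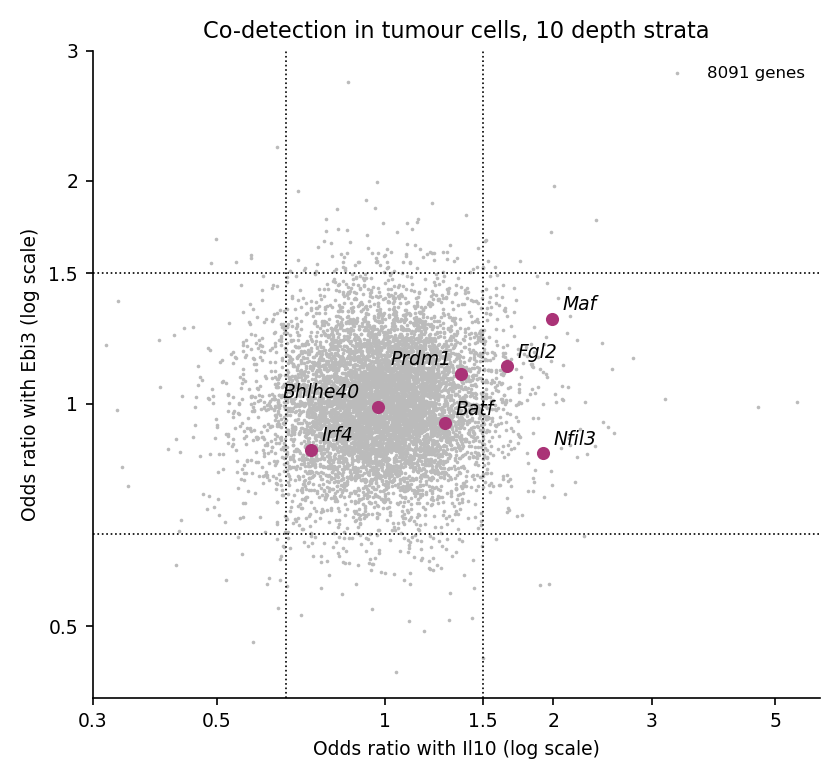
Odds ratio of co-detection with Il10 (horizontal, log axis) and with Ebi3 (vertical, log axis) in tumour cells, pooled over 10 strata of UMI total, for the 7 genes (labelled) and all genes detected in 5% to 95% of cells (grey; a few lie beyond the axes). Dotted lines mark 1.5 and its inverse; Maf, Nfil3 and Fgl2 lie right of the Il10 line and none of the 7 lies above the Ebi3 line.

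Il10 and Ebi3 were found in the same tumour cells about as often as depth alone gave. Both were present in 123 cells (8.44%), where 121.6 were expected, with an odds ratio of 1.03; 110 cells (7.55%) had Il10 without Ebi3, 597 (41.0%) Ebi3 without Il10, and 627 (43.0%) neither. At 3834 UMIs the 4 classes held 43, 109, 339 and 966 cells. With Il10 called at 2 or more UMIs the ratio was 0.668 (48 cells, 57.2 expected), and among cells with a Foxp3 UMI it was 0.729. Cells with both had Maf in 92.7% and Prdm1 in 44.7%, but they were also deeper, at a median of 11528 UMIs against 7202 for cells with neither.

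The cells with most Il10 were the richest in Maf. With 0, 1, 2 to 9 and 10 or more Il10 UMIs (1224, 124, 80 and 29 cells), Maf was found in 76.6%, 82.3%, 91.2% and 100% of cells (29 of 29). Its level over the same classes was 193, 230, 322 and 351 CPM. Nfil3 was at 47.5, 74.1, 109 and 124 CPM and Prdm1 at 37.7, 48.1, 49.2 and 68.2 CPM, both also higher in each class. The Prdm1 intervals of neighbouring classes overlapped, as did those of Maf and Nfil3 in the upper 2 classes. By share of cells the rise was not stepwise: 34.5%, 50.8%, 48.75% and 72.4% for Nfil3, and 28.7%, 37.9%, 31.25% and 58.6% for Prdm1. Bhlhe40 did not rise in each class by CPM (190, 154, 145 and 177 CPM). Nor did Ebi3 (80.1, 85.2, 64.2 and 60.6 CPM), Fgl2 (149, 156, 246 and 212 CPM) or Batf (189, 218, 176 and 273 CPM). Median depth ran from 8588.5 to 12046 UMIs over these classes, and CPM takes that into account while the shares of cells do not. Among the 109 cells with 2 or more Il10 UMIs the odds ratio of Maf was 4.01, on 102 of 109 cells, and that of Fgl2 2.22.

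The same cells can be read from the regulator's side. All tumour cells were thinned to 3834 UMIs and classed by how many UMIs of a gene they then held. With 0, 1, 2 and 3 or more Maf UMIs, Il10 was found in 6.93% (5.15% to 9.08%), 10.1%, 15.0% and 22.7% (15.9% to 30.8%) of cells, and Ebi3 in 23.4% (20.3% to 26.7%), 23.9%, 29.6% and 43.2% (34.6% to 52.1%). Both cytokines were thus more frequent in cells with most Maf, and the intervals of the outer classes did not overlap. Fgl2 gave 7.51%, 11.7%, 15.9% and 24 of 120 cells for Il10, and 23.7%, 26.9%, 31.1% and 35% for Ebi3.

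The Nfil3 classes with most UMIs held few cells. Il10 was found in 9.29% and 10.3% of cells with 0 and 1 Nfil3 UMIs, in 12 of 42 with 2 (28.6%) and in 8 of 17 with 3 or more (47.1%, 23.0% to 72.2%). Ebi3 was found in 25.9%, 27.6%, 33.3% and 2 of 17 (11.8%, 1.46% to 36.4%), and the last interval covers the other 3 shares. For Bhlhe40 the Il10 shares were 11.8%, 9.86%, 7.69% and 6.82%, lower in each class, though the outer intervals (9.62% to 14.2% and 3.16% to 12.5%) overlapped. Batf gave 9.04%, 12.7%, 9.93% and 14.0%, with no order.

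**Figure D4:**
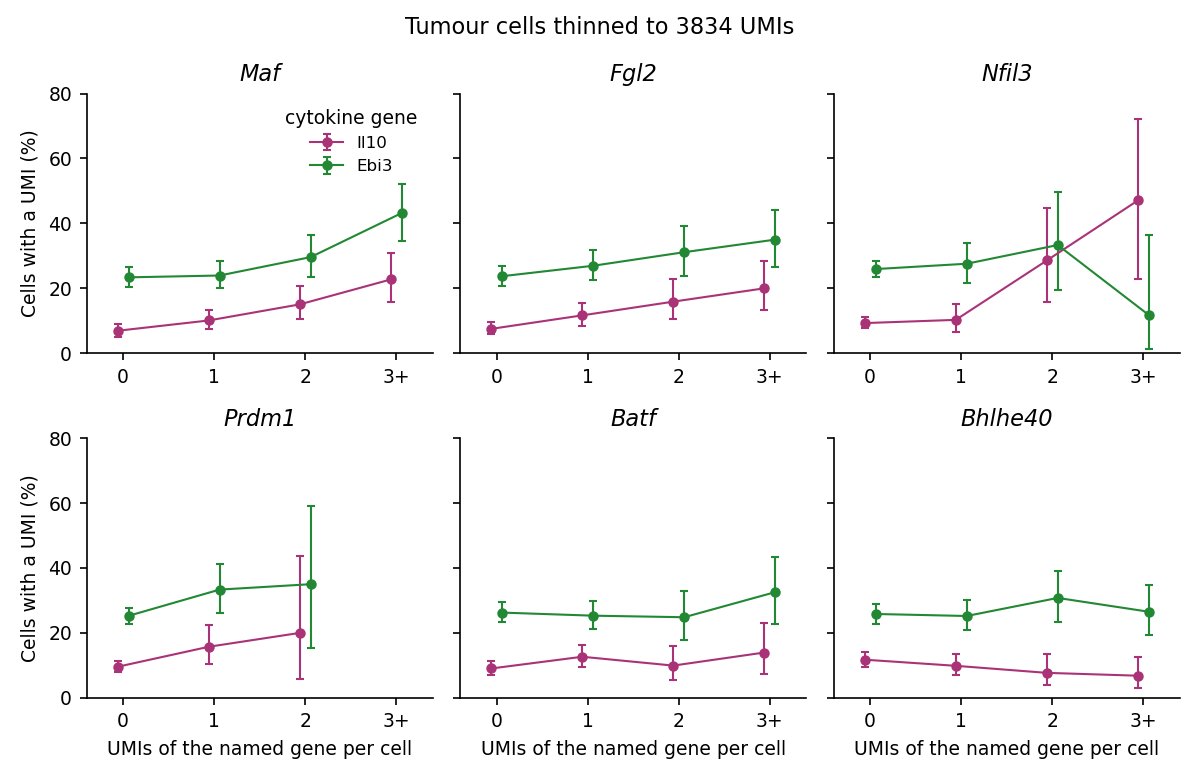
Share of tumour cells with an Il10 UMI and with an Ebi3 UMI (percent, Clopper-Pearson 95% intervals) by the number of UMIs of each regulator in cells thinned to 3834 UMIs; classes under 10 cells are not drawn. Il10 goes from 6.93% to 22.7% over the Maf classes and from 11.8% to 6.82% over the Bhlhe40 classes.

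Maf and Nfil3 were also classed together in tumour cells thinned to 3834 UMIs. At this depth a cell without a UMI may still hold the transcript. Maf was found in 764 cells, against 1142 unthinned, and Nfil3 in 273, against 545. The classes are thus of UMIs found and cannot separate the genes. Il10 was found in 16.4% (11% to 23.0%) of cells with both, 12.9% (10.3% to 15.8%) with Maf alone, 14.0% (8.24% to 21.8%) with Nfil3 alone and 5.53% (3.81% to 7.71%) with neither. Cells in which a UMI of only 1 of these genes was found thus had a share whose interval lay above that of cells with neither. The Ebi3 shares were 27.7%, 29.1%, 27.2% and 22.6%, with overlapping intervals. Counting all 7 genes, Il10 was found in 6.19% of cells with 0 or 1 of them, 7.11% with 2, 17.1% with 3, 15.1% with 4 and 17.9% (7.54% to 33.5%) with 5 or more. Ebi3 was also more frequent from 3 genes up, at 24.3%, 21.8%, 31.4%, 31.4% and 30.8% (17.0% to 47.6%).

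The association of Il10 with Maf had the same direction at each depth. The tumour cells were cut by UMI total into 3 parts of equal size. In the shallowest (3836 to 6617 UMIs), 13.3% of cells with Maf and 8.16% without had Il10. The shares were 19.8% and 8.60% in the middle part, and 19.8% and 12% in the deepest. Cells without Maf numbered 147, 93 and 75 in these parts, and no intervals were computed. Nfil3 gave 21.8% against 8.29%, 24.7% against 13.5%, and 21.3% against 15.9%. Batf kept no direction, at 15.8% against 8.14% in the shallowest part and 18.3% against 20.9% in the deepest, where 43 cells lacked Batf.

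In lymph node, Il10 was too rare for such ratios. Its 9 cells held at most 3 UMIs each, and 7 of them held 1. Maf was found in 5 of the 9 (22 UMIs) against 18.0% of the other cells, Batf in 5 of 9 against 23.1%, and Ebi3 in 3 of 9 against 6.89%. Nfil3 and Bhlhe40 were in none of the 9, which allows shares of up to 33.6%.

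Ebi3, present in 154 lymph node cells, could be examined there. Maf was in 74 of them where 38 were expected, 48.1% (39.9% to 56.2%) against 15.9% of cells without Ebi3, an odds ratio of 3.67, rank 8 of 6080 genes. Batf was in 81 against 50.4 expected, at 3.08, and Prdm1 in 16 against 6.67 expected, at 3.34. Nfil3 (1.89, 10 cells), Bhlhe40 (1.61, 12 cells), Fgl2 (1.55, 13 cells) and Irf4 (1.19, 14 cells) followed on few cells, so that 6 of 7 genes reached 1.5. The background was high too: 22.7% of genes with at least 5 expected joint cells reached 1.5. Of those detected in 5% to 95% of cells, which include Maf and Batf alone of the 7, 19.6% did and 3.85% were at 1/1.5 or less, and the median gene stood at 1.19. The levels were higher as well: Maf was at 151 CPM in Ebi3 cells and 67.1 CPM in the others, Batf at 192 and 76.3 CPM and Prdm1 at 17.2 and 5.46 CPM. Median depth differed, at 5371.5 and 4013.5 UMIs. Whether the Ebi3 ratios of the tissues differ was not tested.

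Pairs among the 7 genes were measured in the same way. In tumour 4 of the 21 pairs reached 1.5 and none was at 1/1.5 or less, against 8.29% and 6.94% of pairings of these genes with every gene. They were Fgl2 with Maf (2.01, 803 cells, 764.4 expected), Prdm1 with Bhlhe40 (1.68), Maf with Prdm1 (1.58) and Nfil3 with Bhlhe40 (1.53). The median pair was at 1.26, and Fgl2 was below 1 with Bhlhe40 (0.768), Batf (0.873) and Irf4 (0.934). In lymph node 14 pairs had at least 5 expected joint cells and 13 reached 1.5, against a background of 29.1%, with 5.22% at 1/1.5 or less. Fgl2 with Maf was again the highest, at 8.68 (56 cells, 21.2 expected), and Maf with Prdm1 stood at 8.40 (41 cells, 16 expected). Bhlhe40 went with Batf (3.93, 46 cells, 25.6 expected) and not with Maf (0.741, 16 cells, 19.4 expected).

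**Figure D5:**
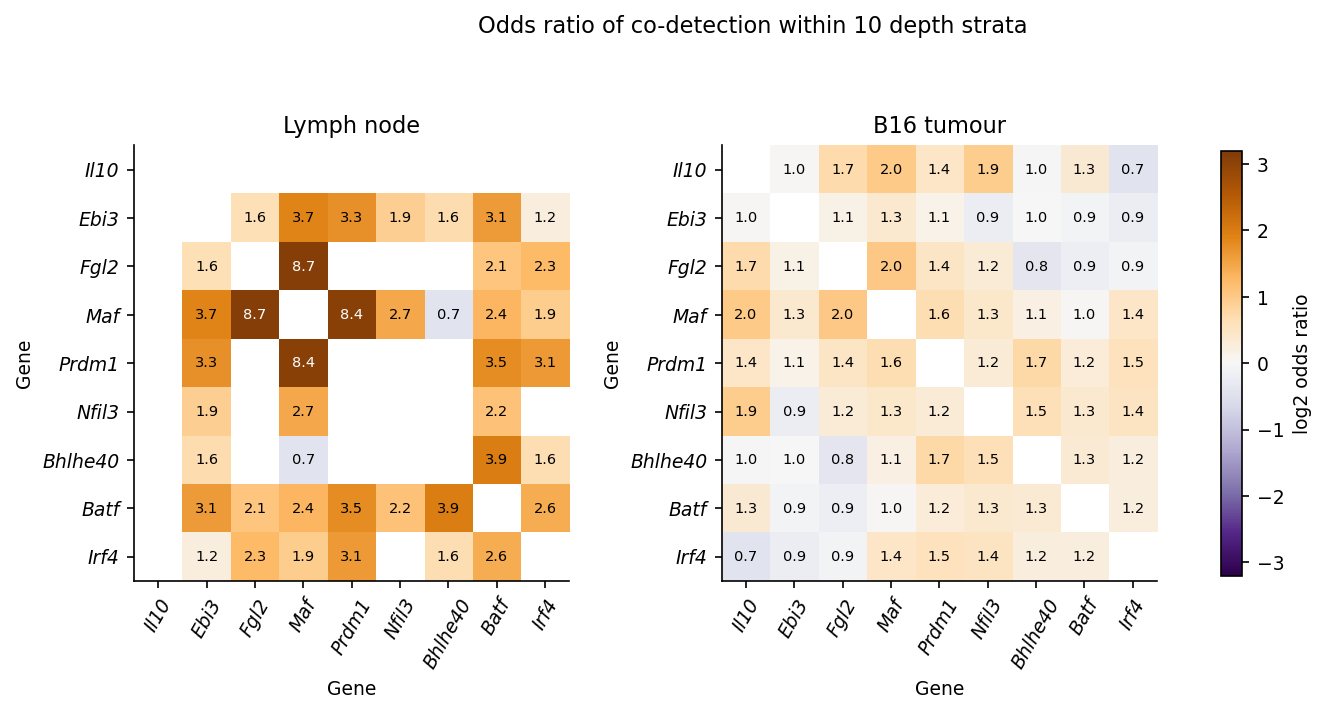
Odds ratio of co-detection for each pair of the 9 genes in lymph node and in tumour cells, pooled over 10 strata of UMI total, on a log colour scale. Blank cells are the diagonal and pairs with under 5 expected joint cells; Fgl2 with Maf is the highest regulator pair in both (8.68 and 2.01).

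States of the tumour cells also divided the genes. At 3834 UMIs, the 319 cells with a UMI of the chemokine genes Ccl3 or Ccl4 had Il10 in 16.3% (12.4% to 20.8%), against 8.79% (7.21% to 10.6%) of the other 1138. Ebi3 went the other way, at 22.9% and 27.2%, with overlapping intervals. Nfil3 was at 24.5% and 17.1% and Prdm1 at 16.9% and 11.2%, while Maf, at 53.6% and 52.1%, barely differed. The 575 mitotic cells had less Maf (42.1%, 38% to 46.2%) than the other 882 (59.2%, 55.9% to 62.5%) and less Fgl2 (36.7% and 47.6%), but more Batf (48.0% and 41.0%). Il10 (9.04% and 11.3%) and Ebi3 (24.2% and 27.6%) had overlapping intervals. Cells with a Foxp3 UMI had Il10 in 13.3% and those without in 10.2%, again overlapping.

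The highest odds ratio with Il10 among the 8092 genes was that of Ctla4 (5.46, in 98.3% of Il10 cells and 89.7% of the others). Next came Ptprc (4.66), Pim1 (3.17), Vamp1 (2.78), Tmem163 (2.57), Gimap7 (2.54), Anxa2 (2.51) and Sv2c (2.45). Ctla4, Ptprc, Pim1, Gimap7 and Anxa2 were each in at least 89.2% of all tumour cells. Their ratios rest on the few Il10 cells that lacked them. The intervals were wide, from 2.10 to 20.2 for Ctla4 and from 1.57 to 22.8 for Ptprc. Sv2c, which encodes a synaptic vesicle protein, was found in 42.5% against 21.8% of cells. The highest with Ebi3 were Ganc (2.72), Eif5a2 (1.99), Rap1b (1.97), Dusp23 (1.94) and Tapbp (1.88). Ganc and Eif5a2 were each in under 10% of cells, and Rap1b and Tapbp in 94.9% and 91.4%. No gene was among the leading 8 of both cytokines. The lowest with Ebi3 was Cd7, at 0.433.

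Related genes were taken from lists drawn up with earlier results of these data known, so their counts are description only. A list gene needed 20 UMIs for a ratio, while the shares over all genes cover those with at least 50. Of the 12 genes of the IL-10 and IL-12 families and their receptors, 8 had at least 20 UMIs. Of these, 5 (Il10 and Ebi3 among them) were higher and 1 lower in tumour by 2-fold or more, where 13.2% and 7.7% of all genes were. The median log2 ratio was 1.73, against 0.14 over all genes. Il10ra, the IL-10 receptor chain of T cells, was 2.73-fold higher (2.29 to 3.25). The IL-12 receptor chain Il12rb2 had no UMI in lymph node, which allows up to 0.345 CPM, and 191 in tumour, or 11.5 CPM (9.89 to 13.2). With 3 UMIs set as a floor for the lymph node library the ratio is 40.8-fold, which is not a lower bound. Il6st, which encodes gp130, a receptor chain that also serves IL-27 and IL-35, was 5.57-fold lower (4.65 to 6.71). Il6st was the 1 gene of 7 measured that reached 1.5 with Il10 (1.52), where 3.73% of all genes did. It was in 30 of the 233 Il10 cells, 12.9% (8.86% to 17.9%), against 8.74% (7.22% to 10.5%) of the others, with overlapping intervals. None of the 7 measured reached 1.5 with Ebi3, where 1.3% of all genes did.

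Of the listed genes of the AP-1 and IRF families, not all of them partners of Batf or Irf4, 5 of 9 were higher in tumour by 2-fold or more. None was lower, where 13.2% of all genes were higher and 7.7% lower. The 5 were Junb, Fos, Fosb, Fosl2 and Irf8. Among the JUN genes, Junb was 5.18-fold higher, Jund 1.93-fold and Jun 1.14-fold. Fosl2 stood at 27.6 against 0.374 CPM, and Irf8, a relative of Irf4, at 139 against 28.7 CPM (4.84-fold, 4.29 to 5.47). Irf8 alone of 7 reached 1.5 with Il10 (1.63, in 65.7% against 50.7% of cells), as did 3.73% of all genes. Fosb was under 1/1.5 with Ebi3 (0.553). Among 15 other genes known to act on Il10 in T cells, 7 were higher and 2 lower by 2-fold or more. Nr4a1, an immediate early gene of T cell receptor signalling (1.61), Ikzf3, which encodes Aiolos (1.59), and Ahr, the aryl hydrocarbon receptor (1.53), reached 1.5 with Il10. Rora was under 1/1.5 with Il10 (0.613). None of the 13 measured reached 1.5 with Ebi3, where 1.3% of all genes did.

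Of the listed quiescence and memory regulators, 8 of 9 were at least 2-fold lower in tumour and none higher, where 7.7% of all genes were lower. Their median log2 ratio was -2.42, and Ets1 was the exception, at a ratio of 0.994. Any part of Blimp-1 or Bhlhe40 in these levels was not tested. Bach2 was 42.7-fold lower (24.1 to 83.4), Tcf7 20.2-fold (16.9 to 24.3) and Id3 50.6-fold (40.7 to 63.6). Tcf7 was also under 1/1.5 with both Il10 (0.649) and Ebi3 (0.577), while Satb1 was at 1.55 with Il10. All 7 genes of the co-inhibitory list with enough UMIs were at least 2-fold higher, against 13.2% of all genes, with a median log2 ratio of 2.16. They were receptor genes except for Pdcd1lg2, which encodes a ligand. Lag3, an inhibitory receptor for MHC class II, was co-detected with Il10 (2.38, in 68.2% against 45.3% of cells) but not with Ebi3 (0.876). So was Ctla4 (5.46 and 1.0), which was in 91.1% of all tumour cells. Of 8 other suppressive mediators, 5 were higher and none lower by 2-fold. Gzmb, the cytotoxic protease granzyme B, stood at 881 against 11.7 CPM. It was the 1 of the 8 that reached 1.5 with Il10 (2.08), where 3.73% of all genes did.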

How the data were processed

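UMI counts per gene and barcode were measured in 1 lymph node and 1 tumour library. The authors deposited raw whole-number counts, not normalized, made with Cell Ranger on mm10 per the submitters' processing notes; the notes give no version, annotation or use of strand. The members and gene lists were chosen with earlier results of these data known.

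A barcode was a cell from a UMI threshold up (10% of the 99th percentile among the 3000 largest barcodes: 1811 UMIs in lymph node, 3834 in tumour), with at least 200 genes, at most 10% mitochondrial UMIs, fewer than 20 UMIs of Pmel, Dct and Mlana, fewer than 3 of C1qa, C1qb and Lyz2, and fewer than 2 of Cd79a and Ms4a1. Of 2226 and 1489 barcodes at the threshold, 2202 and 1457 remained, holding 10681101 of 14000036 and 16669263 of 23618037 UMIs. Doublets were not called and were kept. Cells were grouped by library.

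Counts were summed over cells and given as CPM with exact Poisson intervals, and ratios with conditional binomial intervals. Shares carry Clopper-Pearson intervals after thinning cells without replacement. Odds ratios were pooled by the Mantel-Haenszel formula over 10 depth strata. Their intervals rescale the Clopper-Pearson interval of the share among cytokine-positive cells and leave out the counting error of the other cells. No p-value was computed, since 1 library per group gives no replicate error. The named genes were the 9 members, up to 3 genes at each end of each list, and the 8 highest and 5 lowest genes by odds ratio with each cytokine in tumour. List genes needed 20 UMIs over both libraries for a ratio. Alternatives were other scalings (edgeR 4.0.16 for TMM), thinning depths, strata, cell subsets and cytokine thresholds. Leaving out the barcode found in both libraries, and the background over genes detected in 30% to 80% of cells, were chosen after seeing the data. Python 3.11.15 (numpy 2.4.6, scipy 1.17.1, pandas 2.3.3) and R 4.3.3 were used. The ratio and the odds ratio were tested on simulated data. Positions come from GENCODE M21 and promoter sequences from RefSeq.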

Additional observations from a re-analysis of the deposited data

How the results depend on the processing

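No paired analysis was possible because each group is 1 library. No tissue ratio of CPM changed direction under the alternatives, and 8 of 9 genes, or 7 among cells with a Foxp3 UMI, were at least 2-fold higher in tumour. The Il10 ratio of 51.5 was 145 as a mean per thinned cell and 26.8 among the Foxp3 cells (211 lymph node, 244 tumour), and without mitotic cells it was 73.9. The Ebi3 ratio of 4.03 was 4.90 as a mean per thinned cell, 2.95 in Foxp3 cells, 5.19 without mitotic cells and 4.71 without the deepest 5% of cells. TMM shifted all log2 ratios by -0.10. At 3834 UMIs and without thinning, the Il10 share was 0.654% and 0.409% in lymph node and 10.4% and 16% in tumour, and the Ebi3 share 5.97% and 6.99%, and 26.2% and 49.4%. The number of regulators at 1.5 or more with Il10, 3, was 5 without strata and 5 without mitotic cells. It was 4, with Prdm1 added, in cells thinned to 3834 UMIs without strata and in cells with a Foxp3 UMI. With Ebi3 the number was 0, and 2 without strata, 1 without mitotic cells and 1 with 2 or more UMIs. The odds ratio of Il10 with Ebi3 was 0.729 in Foxp3 cells and 0.668 with 2 or more Il10 UMIs. Other ratios near 1 also crossed it: Irf4 with Il10 was 1.14 without mitotic cells, Bhlhe40 with Il10 1.13 in Foxp3 cells, and with Ebi3, without strata, Nfil3 was 1.11, Batf 1.49, Bhlhe40 1.29 and Irf4 1.40. The Irf4 share was higher in tumour only without thinning (7.69% against 4.50%). Across the alternatives Maf with Il10 ranged from 1.68 to 4.01, Nfil3 from 1.78 to 2.54 and Fgl2 from 1.65 to 2.22. The causes were not tested. Low counts limit the lymph node values of Il10, Nfil3 and Prdm1 and the Irf4 values in both tissues, and a single library per tissue gives no measure of variation between mice.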
